A study of Mus musculus with 10 samples.

Results

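The genes described here are those whose RNA differed between Mina53-KO and wild-type (WT) neural stem and progenitor cells only once a second difference between the libraries, their mitochondrial class, was included in the fit. Each RNA library was placed in a class by the percent of its counts that fell in genes whose names start with mt-, high at 3 or more and low below 3. Genotype was then fitted with the class as a covariate in edgeR's quasi-likelihood test, and again without it, and a gene was called at a Benjamini-Hochberg adjusted p under 0.05. Of 57180 genes in the table, 15298 passed the count filter. With the class 1695 of them were called (11.1%), 902 higher (5.9%) and 793 lower (5.18%) in KO. Without it 525 were called (3.43%), 271 higher (1.77%) and 254 lower (1.66%). Only with the class were 1170 called (7.65%), 631 higher (4.12%) and 539 lower (3.52%). All 525 genes called without the class were called with it too. The 1170 genes were chosen by the KO against WT contrast itself, so their fold changes and adjusted p in that contrast are a description and support nothing.

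The study holds poly(A) RNA-seq of 3 WT and 3 Mina53-KO libraries and CUT&Tag of 2 WT and 2 Mina53-KO libraries, from mouse brain cells that the labels call NSPCs and give no treatment. CUT&Tag cuts DNA beside a chromatin feature bound by an antibody, and the labels name no antibody. How the KO was made, whether it is 1 line, the strain, the age and the brain region are likewise not given in the sources at hand. No label says whether libraries of a group stem from separate animals or cultures, so a p-value here reflects the spread among the sequenced libraries alone, which may be technical.

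Mina53, current symbol Riox2, is a JmjC-domain oxygenase of the nucleus and nucleolus. Neural stem and progenitor cells divide in culture and can give rise to neurons, astrocytes and oligodendrocytes. Mitochondrial transcripts are polyadenylated, so a poly(A) library holds a share of them that differs with the cells' energy metabolism, with their state and with RNA handling.

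The mitochondrial share was 2.31% in WT 1, 5.71% in WT 2, 3.52% in WT 3, 2.68% in KO 1, 2.65% in KO 2 and 4.64% in KO 3. WT therefore had 1 low and 2 high libraries and KO 2 low and 1 high, and WT 1 was the only low WT and KO 3 the only high KO library. Total counts were 19923010 to 25939376. The class was read from these same counts and no label gives it; what sets it was not tested. Riox2 measured 20.0, 17.2 and 18.5 CPM (counts scaled to library size) in WT and 3.26, 3.78 and 3.70 in KO, a log2 fold change of -2.39 (SE 0.13). It was called in both fits and is not among the 1170 genes. The stem and radial glia markers summed to 12180 to 13870 CPM per library, while microglial markers summed to 1.87 to 2.42 with Cx3cr1 and Trem2 at 0, and erythroid markers to 0.347 to 0.506 with 4 of 8 at 0.

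Genes called only with the class changed less than those called in both fits. Their median absolute log2 fold change was 0.47, or 1.38-fold (quartiles 0.37 and 0.68), against 1.08 or 2.12-fold for the 525 genes called in both fits and 0.14 over all tested genes. Only 128 of the 1170 (78 higher, 50 lower) reached a log2 fold change of 1. The class term moved their fold change by a median of 0.09 on the log2 scale, and the median SE was 0.10 with the class and 0.16 without it. Neither was particular to them: over all tested genes the median move was 0.09 and the median SE 0.11 with the class and 0.17 without it. The common biological coefficient of variation was 9.06% with the class and 17.9% without.

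**Figure D1:**
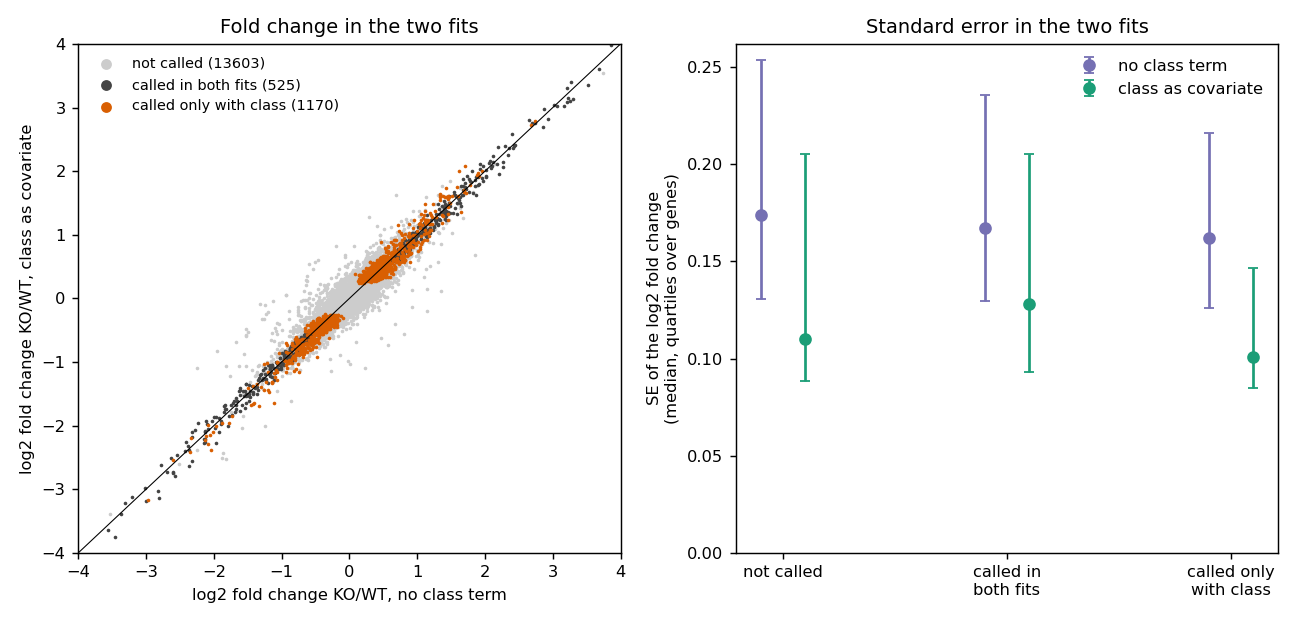
Left, the log2 fold change of each tested gene in the fit without the class (x axis) and with it (y axis), coloured by the fits that called it, with the line of equal values; right, the median and quartiles of the SE of the log2 fold change in the same 3 sets of genes. Genes called only with the class lie between the uncalled genes and most of those called in both fits. Their median SE is 0.10 with the class and 0.16 without it, against 0.11 and 0.17 for uncalled genes.

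Without the class, 279 of the 1170 genes had an adjusted p of 0.05 to 0.1, 387 of 0.1 to 0.2 and 504 of 0.2 or more. The class itself was called for 482 of them (41.2%), against 5346 (34.9%) of all tested genes. Of the 631 higher in KO, 184 were also higher in the high class and 86 lower. Of the 539 lower in KO, 64 were higher and 148 lower in the high class. Over all tested genes, 17.1% were higher and 17.8% lower in the high class. More WT than KO libraries were in the high class. Leaving the class out therefore shrinks a genotype difference that has the same sign as the class difference. Choosing genes called only with the class favours such genes, so the excess of matching signs follows from the choice and is a description only. For 178 of the 1170 genes the class difference was larger than the genotype difference, against 9863 of all 15298 tested genes. The 1170 were chosen by the genotype contrast, which favours a large genotype difference.

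Bmpr2, a BMP receptor, had the highest adjusted p without the class of all 1170 genes, 0.955. It measured 78.0, 170 and 127 CPM in WT and 111, 106 and 180 CPM in KO. The groups overlapped over the 6 libraries, but within the low class both KO libraries stood above WT 1, and within the high class KO 3 stood above WT 2 and WT 3. Its log2 fold change with the class was 0.38 (SE 0.11, adjusted p = 0.0487), and its class difference was 0.83.

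Over all 1170 genes, KO and WT did not overlap within either class, which also held for 6506 of all tested genes (42.5%). Over the 6 libraries with no regard to class, 834 of the 1170 genes (71.3%) did not overlap, against 2900 of all tested genes (19%). At the threshold, Pcdhb10 (log2 fold change 0.62), Parp10 (-0.91) and Bcl9l (-0.44) lay just inside and Acbd3 (0.26), Atic (0.25) and Frmd4a (0.26) just outside. The product of genotype and class, which the rule did not use, was tested over all 15298 genes. It was called for 1 gene (0.00654%), not among the 1170, and had an unadjusted p under 0.05 for 6 of the 1170 and 167 (1.09%) of all tested genes.

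The number of genes rested on 2 libraries. Without WT 1 it was 109 (72 of them among the 1170) and without KO 3 it was 81 (54 of them). Without KO 1 or KO 2 it was 748 and 685, and without WT 2 or WT 3 it was 3572 and 2172, of which 1146 and 1138 were among the 1170. A set of 130 genes was named by the rule given in the processing notes, apart from Slc19a2 and Rev1, examples of chromosome 1. Of the 130, 15 were called with the class whichever library was left out, and none changed direction. Of the 130, 103 lost the call without WT 1, 103 without KO 3, 56 without KO 1, 62 without KO 2, and 1 each when WT 2 or WT 3 was dropped, so single genes below are calls of all 6 libraries unless they are among the 15. The 15 were Arpc1b, Eln, Col4a1, Rflna, Gcat, Mvd, Slc2a1, Tpi1 and Hmmr, lower in KO, and Slc6a15, Grin2a, Prrx1, Lrrc7, Cdkn2a and Cacnb3, higher in KO.

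**Figure D2:**
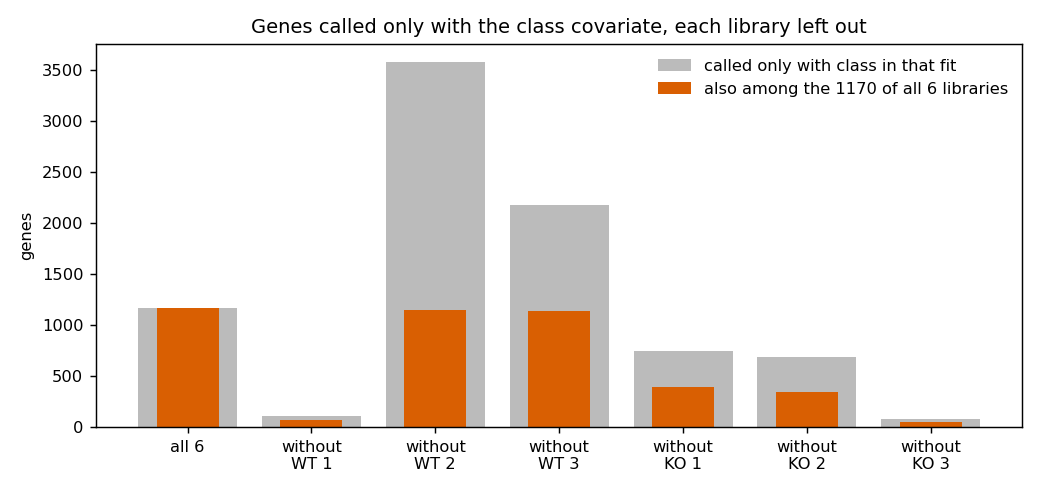
Number of genes called only with the class (y axis) with all 6 RNA libraries and with each left out (x axis); grey bars give all such genes and orange bars those among the 1170. The bars are lowest without KO 3 (81) and without WT 1 (109).

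Arpc1b, a subunit of the Arp2/3 complex that nucleates branched actin, had the smallest p of the 1170 genes. It measured 99.6, 72.6 and 75.3 CPM in WT and 48.9, 53.5 and 35.4 CPM in KO. Every KO library lay below every WT library, and in each genotype the low-class libraries were the higher ones. The log2 fold change was -1.01 (SE 0.08, adjusted p = 1.2e-05, against 0.0539 without the class).

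Eln, which encodes elastin, measured 52.2, 30.7 and 40.7 CPM in WT and 21.5, 23.5 and 13.8 CPM in KO, a log2 fold change of -1.29 (SE 0.12). Col4a1, a basement membrane collagen, measured 35.5, 21.2 and 23.5 CPM in WT and 18.8, 17.7 and 13.0 CPM in KO (-0.88, SE 0.10). Both had their 3 lowest values in KO. Col4a2, whose product assembles with that of Col4a1 and whose gene shares its promoter region, fell by 0.78 on the log2 scale (SE 0.14). Of 37 matrix genes tested, a list that does not hold Eln, 8 were called only with the class, and 7 of these were lower: Col4a1, Col4a2, Col9a1, Gpc4, Ncan, Thbs1 and Vcan. Col5a1 was higher (0.63, SE 0.11). The list's median log2 fold change was -0.02, beside -0.000869 over all tested genes, and a further 7 genes were higher and 3 lower in both fits. The count of lower matrix genes was 10 with all libraries, 4 without WT 1 and 5 without KO 3.

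Slc6a15, a neuronal transporter of neutral amino acids, had the largest rise under the naming rule. Its level was 0.549, 1.48 and 1.47 CPM in WT and 2.47, 3.03 and 5.25 CPM in KO, a log2 fold change of 2.00 (SE 0.23). All KO libraries were above all WT libraries, and within each genotype the low-class libraries were the lower ones. Other large rises under that rule were Dcx (1.75), Grin2a, an NMDA receptor subunit (1.62), the homeobox gene Six4 (1.62), Tnfsf18 (1.34), Clec14a (1.31), the activin antagonist Fst (1.18), Dach2 (1.16) and the small GTPase gene Rnd1 (1.07). Pcdha11 had 1.17, but protocadherin alpha genes share their last exons and its counts are uncertain.

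The largest falls under the naming rule, which leaves out genes under a mean log2 CPM of 1 and predicted names, were in Kcng4 (-1.66), Gcat (-1.65), the helicase gene Helz2 (-1.43), Eln, the junctophilin gene Jph4 (-1.23), the mitochondrial gene Chchd10 (-1.16), Psd2 (-1.12), Irx1 (-1.03), Zfp979 (-1.03) and the chemokine gene Ccl28 (-1.01). The table carries the symbol Gcat on 2 gene IDs. The one called, ENSMUSG00000116378, measured 13.0, 4.44 and 5.52 CPM in WT and 4.10, 5.32 and 1.28 CPM in KO, and the other had a log2 fold change of -0.15 and was not called. The split of reads between them is uncertain.

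Of 24 cholesterol synthesis genes tested, 17 were lower only with the class and 4 (Dhcr7, Fdft1, Lss and Stard4) in both fits, and 3 did not pass, Ebp and Hsd17b7 among them. All 24 had a negative log2 fold change, with a median of -0.43, against 7689 of all 15298 tested genes and a median of -0.000869. The 17 changed by 1.19-fold to 1.64-fold and lay along the pathway. They included Hmgcs1 near its start, Mvk, Pmvk, Mvd, Idi1 and Fdps in the isoprenoid steps, Sqle, Cyp51, Tm7sf2, Msmo1, Nsdhl and Sc5d in the sterol steps, and Srebf2 and Insig1 of its feedback.

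The promoter of Hmgcs1, the synthase that supplies HMG-CoA, and those of 4 genes of glucose uptake and the hypoxia response are shown because these gene groups, described next, fell together. Capitals mark the letters TCACNCCAC, the core of a sterol response element, or ACGTG, the core of a hypoxia response element, searched on both strands in the bases before the start in RefSeq's promoters (GRCm38.p6). Each is printed on the strand of its gene, so CACGT is a match on the opposite strand.
Hmgcs1 (chr13:119690204-119690232, plus strand): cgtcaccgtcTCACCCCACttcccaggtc
Slc2a1 (chr4:119108697-119108725, plus strand): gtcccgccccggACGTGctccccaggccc
P4ha1 (chr10:59323268-59323295, plus strand): tgtgacagagcgCACGTagcgagggctg
Ero1a (chr14:45318619-45318647, minus strand): cgcgcgccgctgCACGTccgcaggggagg
Egln1 (chr8:124949306-124949334, minus strand): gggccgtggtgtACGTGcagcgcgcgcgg
The sterol letters were present in 1.24% of the 10925 tested genes with a promoter and in 1 of 16 cholesterol genes with one, Hmgcs1. The letters ACGTG were present in 24.8% of the tested genes with a promoter, in 10 of 21 glycolysis genes (5 of the 12 called only with the class) and in 15 of 19 hypoxia genes (5 of the 6 called only with the class that had a promoter). A match is a description of the letters. No match was found in the promoters of Mvd, Mvk, Tpi1, Eno1 and Pfkl, and Fdps and Bhlhe40 were not matched to a promoter.

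Hmgcs1 measured 1690, 1978 and 2066 CPM in WT and 1230, 1217 and 1471 CPM in KO, with no overlap between the groups (log2 fold change -0.46, SE 0.07, adjusted p = 0.00122, against 0.0558 without the class). Mvd, mevalonate diphosphate decarboxylase, measured 129, 80.3 and 99.2 CPM in WT and 81.7, 77.5 and 53.8 CPM in KO. Over all libraries its groups overlapped, since KO 1 in the low class lay above WT 2 in the high class. Its log2 fold change was -0.72 (SE 0.09, adjusted p = 0.000414, against 0.301 without the class). Mvk and Fdps had -0.55 (SE 0.08) and -0.49 (SE 0.08). With the class, the count of lower cholesterol genes was 21 with all libraries and 5 without WT 1. Dropping KO 1, KO 2 or KO 3 left 14, 12 and 3.

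Fatty acid synthesis, which shares its sterol-regulated transcription factors with cholesterol synthesis, had 5 of 18 tested genes lower only with the class: Acaca, Acly, Fads1, Fads2 and Scd1. Scd1, the stearoyl-CoA desaturase, measured 712, 857 and 899 CPM in WT and 538, 499 and 667 CPM in KO (-0.43, SE 0.07). Srebf1, a transcription factor of this pathway, was higher: 243, 154 and 218 CPM in WT and 330, 344 and 264 CPM in KO (0.49, SE 0.12). Acss2 was lower in both fits and 11 genes did not pass, for a median of -0.29. With the class 6 genes of the list were lower with all libraries, 1 without WT 1 or KO 3, 3 without KO 2 and 11 without WT 2.

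Of 22 glycolysis genes tested, 12 were lower only with the class: Slc2a1, Hk1, Hk2, Gpi1, Pfkl, Pfkp, Aldoa, Tpi1, Gapdh, Pgk1, Pgam1 and Eno1. Aldoc, Ldha, Pdk1 and Slc16a3 were lower in both fits, 6 did not pass and none was higher. Tpi1, triosephosphate isomerase, measured 778, 532 and 538 CPM in WT and 535, 499 and 368 CPM in KO. The 2 low-class KO libraries were level with the 2 high-class WT libraries and well below WT 1, the low-class WT library. Its log2 fold change was -0.56 (SE 0.07, adjusted p = 0.000351, against 0.44 without the class).

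Slc2a1, the glucose transporter GLUT1, measured 98.1, 61.6 and 80.4 CPM in WT and 56.4, 47.2 and 39.4 CPM in KO, without overlap (-0.89, SE 0.11). Pfkl, of the committed step, had -0.77 (SE 0.13) and Eno1 -0.41 (SE 0.07). The list's median was -0.40 with the class and -0.27 without it. This list also moved with the class: 14 of its 22 genes were lower and 0 higher in the high class, with a median of -0.31, and the part of the class in the genotype difference was not tested beyond the covariate. The count of lower genes was 16 with all libraries, 5 without WT 1 and 7 without KO 3.

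The hypoxia response list had 7 of 24 tested genes lower only with the class: Ankrd37, Bhlhe40, Egln1, Ero1a, Fam162a, Higd1a and P4ha1. A further 5 (Ak4, Bnip3, Car9, Epas1 and Ndrg1) were lower in both fits, none was higher, and the median was -0.41. P4ha1, a collagen prolyl hydroxylase, measured 139, 131 and 125 CPM in WT and 101, 90.7 and 94.0 CPM in KO (-0.49, SE 0.08). Ero1a, an oxidase of disulfide formation, measured 105, 134 and 117 CPM in WT and 64.9, 53.4 and 90.1 CPM in KO (-0.65, SE 0.11). Neither gene's groups overlapped. In the high class 5 genes of the list were higher and 3 lower, so this list had no common direction with the class. The count of lower genes was 12 with all libraries, 3 without WT 1, and 7 or 8 when KO 3 or KO 1 was dropped.

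**Figure D3:**
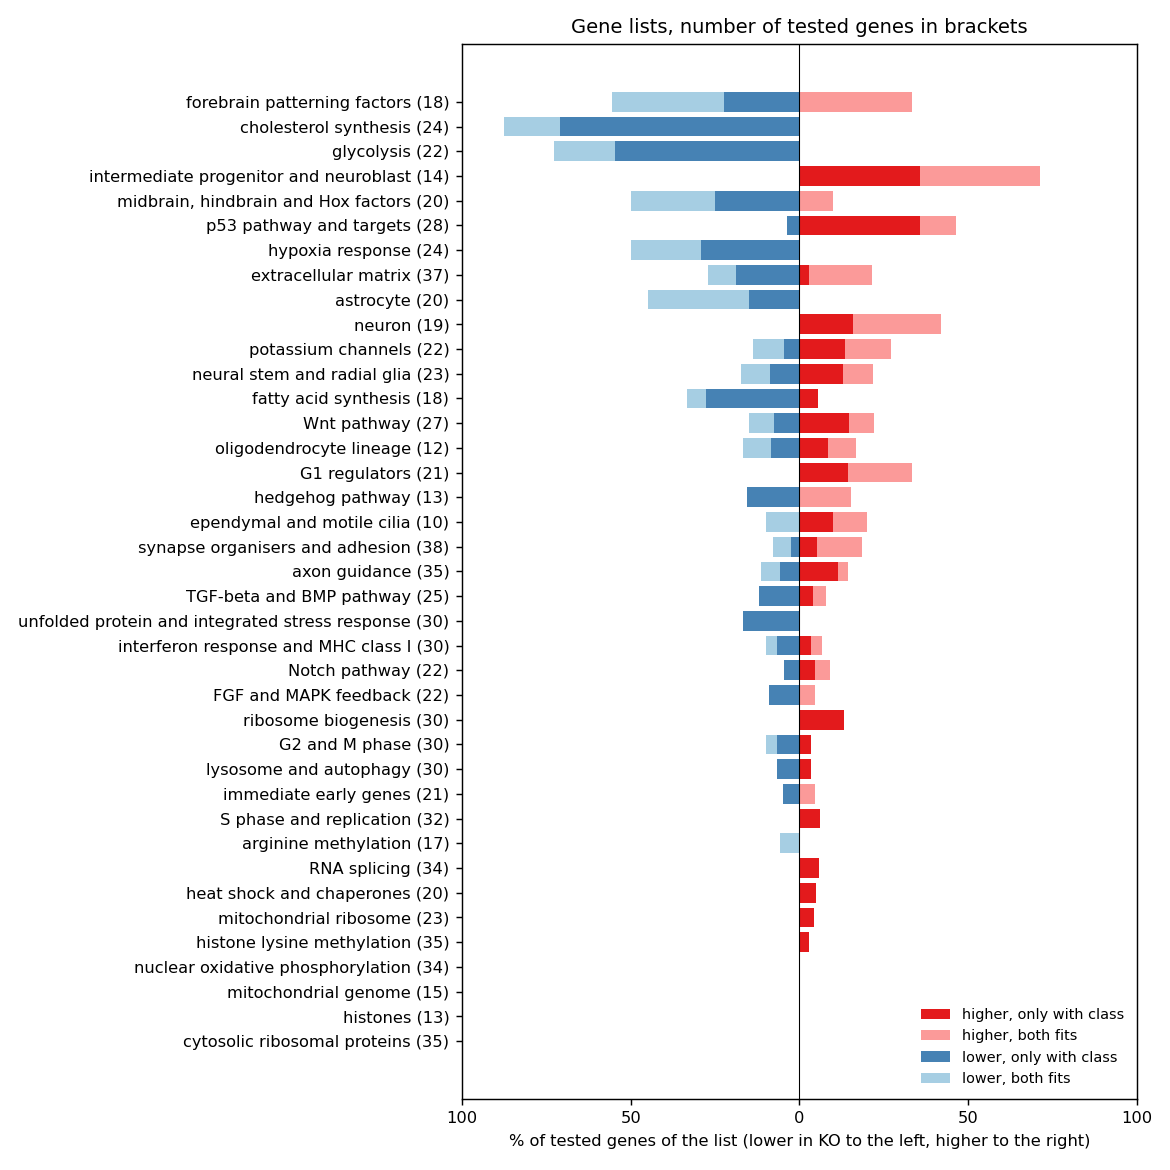
Percent of each gene list's tested genes (number in brackets) called lower (left, blue) or higher (right, red) in KO with the class as covariate; dark bars are genes called only with the class and pale bars genes called in both fits. Cholesterol synthesis has the longest dark bar to the left, with 17 of 24 genes, and the p53 and progenitor lists the longest to the right, with 10 of 28 and 5 of 14.

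The list of p53 targets had 10 of 28 tested genes higher only with the class, and 3 higher in both fits (Btg2, Cdkn1a and Pmaip1). The 10 were the feedback ubiquitin ligase gene Mdm2, the death receptors Fas and Tnfrsf10b, Eda2r, the BH3-only gene Bbc3, Phlda3, Zmat3, Trp53inp1, the exonuclease gene Aen and the polymerase gene Polk. Sesn1, of the sestrin family, was lower, 14 genes including Trp53, Bax and Ccng1 did not pass, and the median was 0.24. Mdm2 measured 78.3, 86.5 and 85.7 CPM in WT and 103, 109 and 117 CPM in KO (0.44, SE 0.07). Fas measured 10.0, 12.6 and 9.72 CPM in WT and 16.4, 16.0 and 18.2 CPM in KO (0.70, SE 0.12). In both genes all KO libraries lay above all WT libraries. The count of higher genes in this list was 13 with all libraries, 3 without WT 1, and 5 or 8 when KO 3 or KO 2 was dropped.

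Cdkn2a, whose products are the cell cycle inhibitor p16 and the p53 stabiliser Arf, measured 27.3, 18.3 and 18.4 CPM in WT and 44.0, 46.6 and 28.8 CPM in KO. The high-class KO library was the lowest of KO and still above all WT libraries, and the log2 fold change was 0.69 (SE 0.09, adjusted p = 0.000354). Its neighbour Cdkn2b, another inhibitor, had 0.48 (SE 0.10), and the transcription factor gene Mycn had 1.31 (SE 0.32) at 0.579 to 1.91 CPM. Of 21 G1 regulators tested, the cyclin genes Ccnd1 and Ccnd2, the kinase gene Cdk6 and the inhibitor gene Cdkn1a were higher in both fits. None of the 21 was lower and 14 did not pass.

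Of 32 S phase genes, 2 were called only with the class, Ccne1 (0.36) and the helicase subunit Mcm6 (0.33), and 30 did not pass. Of 30 genes of G2 and M phase, Hmmr and Cdc25b were lower and Cenpf higher only with the class, Ccnb2 was lower in both fits and 26 did not pass. The log2 fold change was negative in 27 of the 30, with a median of -0.11, against 7689 of all 15298 tested genes and a median of -0.000869. With the class 13.3% of the list was called in either direction, near the 11.1% of all tested genes. The count of lower genes, 3 with all libraries, was 2 to 10 with each library left out. Hmmr, a spindle-associated protein gene, measured 171, 254 and 207 CPM in WT and 110, 111 and 147 CPM in KO, a log2 fold change of -0.64 (SE 0.09).

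Among cell type markers, 5 of 14 intermediate progenitor and neuroblast genes tested were higher only with the class (Dcx, Dlx2, Gadd45g, Hes6 and Tubb3) and 5 in both fits. Dcx, which encodes the microtubule protein doublecortin of migrating neuroblasts, measured 1.01, 1.40 and 0.617 CPM in WT and 2.77, 1.75 and 4.59 CPM in KO (1.75, SE 0.34). Gadd45g measured 15.1, 7.40 and 12.4 CPM in WT and 27.6, 31.8 and 17.9 CPM in KO (0.92, SE 0.17). Neither overlapped. The summed level of the list was 564 to 614 CPM in WT and 795 to 814 CPM in KO; a larger number of such cells and more of these RNAs per cell cannot be told apart in bulk libraries. The count of higher genes was 10 with all libraries, 3 without KO 3 and 6 without WT 1.

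Of 19 neuron genes, Map2, Kif5a and Stmn4 were higher only with the class and 5 in both fits, 8 in all, a count that was 3 without WT 1 and 2 without KO 3. Clu, Cst3 and Mlc1 of the 20 astrocyte genes were lower only with the class and 6 in both fits, and astrocyte markers summed to 6702 to 8327 CPM in WT and 5529 to 6353 CPM in KO. Among 23 stem and radial glia genes, Nes, Nr2e1 and Hes5 were higher and Pax6 and Cd9 lower only with the class. Pax6, a transcription factor of radial glia, measured 34.2, 31.1 and 35.2 CPM in WT and 23.3, 25.3 and 23.3 CPM in KO (-0.50, SE 0.09). The oligodendrocyte list moved with the class instead, with 6 of 12 genes lower in the high class. The part of these cell types in the other gene groups was not tested.

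**Figure D4:**
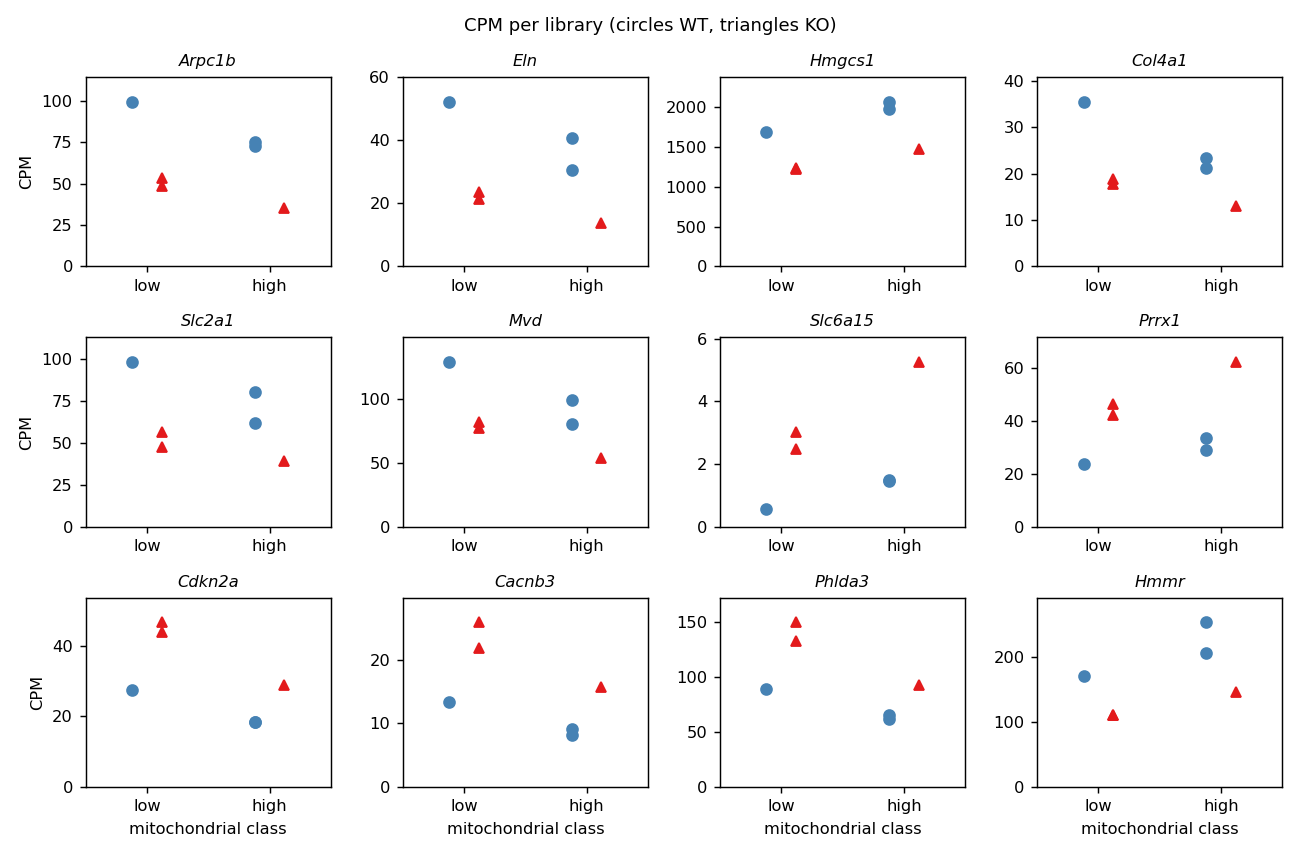
CPM (y axis, from 0, a scale per gene) of 12 genes called only with the class, by mitochondrial class (x axis), with 1 point per library, circles for WT and triangles for KO. In every panel the KO points lie on 1 side of the WT points within each class, which all 1170 genes share.

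Positional genes formed a smaller group. The Iroquois homeobox genes Irx1, Irx2, Irx3 and Irx5 and the midbrain gene En1 were lower only with the class, 5 of 20 midbrain, hindbrain and Hox factors tested. Irx2 measured 15.8, 11.2 and 13.8 CPM in WT and 8.55, 8.15 and 6.97 CPM in KO (-0.89, SE 0.13), without overlap. Irx3 and Irx5, neighbours in a cluster on chromosome 8, had -0.93 (SE 0.16) and -0.77 (SE 0.17). The count of lower genes in this list was 10 with all libraries and 6 without WT 1. Of 18 forebrain factors, Nr2f1, Otx2, Pax6 and Zic4 were lower only with the class and none was higher only with it.

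Of 30 genes of the unfolded protein and integrated stress responses, 5 were lower only with the class and none was called without it. They were the asparagine synthetase gene Asns, Chac1, Mthfd2, the amino acid transporter gene Slc7a5 and Trib3, and 25 did not pass. Slc7a5 measured 372, 327 and 360 CPM in WT and 272, 283 and 259 CPM in KO (-0.42, SE 0.07). No gene of this list was lower past the threshold without WT 1 or without KO 3, while 2 were without KO 1 or KO 2 and 12 without WT 2.

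Several groups held no gene called only with the class: 34 nuclear genes of oxidative phosphorylation, 15 genes of the mitochondrial genome, 35 cytosolic ribosomal protein genes, 13 histone genes and 17 arginine methylation genes, where Riox2 alone was called. Over all tested genes the share called only with the class was 7.65%. At that share lists this short hold few such genes, so their absence is a description only. Ribosomal protein genes moved with the class, 24 of 35 lower in the high class with a median of -0.32. The mitochondrial genome's genes, which define the class, had a median of 0.94 in the high class.

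The genes called only with the class were unevenly spread over the chromosomes. Chromosomes were taken from RefSeq by gene ID, or by symbol where the ID had no match, for 1120 of the 1170 genes. On chromosome 1, 201 of 817 tested genes (24.6%) were called only with the class, 193 higher and 8 lower in KO. On chromosomes 2 to 19 and X the share was 5.72% to 8.9%, and over all but chromosome 1 it was 919 of 13076 (7.03%), 399 higher and 520 lower. Chromosome 1 held 32.6% of the higher genes and 1.52% of the lower ones, against 5.88% of tested genes.

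The shift covered most tested genes of chromosome 1, called or not. Their median log2 fold change was 0.25 (quartiles 0.12 and 0.40) and 699 of 817 (85.6%) were positive, whereas the medians of chromosomes 2 to 19 and X lay between -0.03 and 0.01, with 41.2% to 52.6% positive. The median was 0.26 in the low class and 0.25 in the high class. Against the WT mean, chromosome 1 had a median of -0.06 in WT 1, 0.05 in WT 2 and 0.02 in WT 3, and of 0.18 in KO 1, 0.17 in KO 2 and 0.30 in KO 3. All 3 KO libraries stood above all WT libraries there. When the tested genes were split by their order into 10 equal runs, every run had a median of 0.20 to 0.29 and 13 to 23 genes called only with the class.

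**Figure D5:**
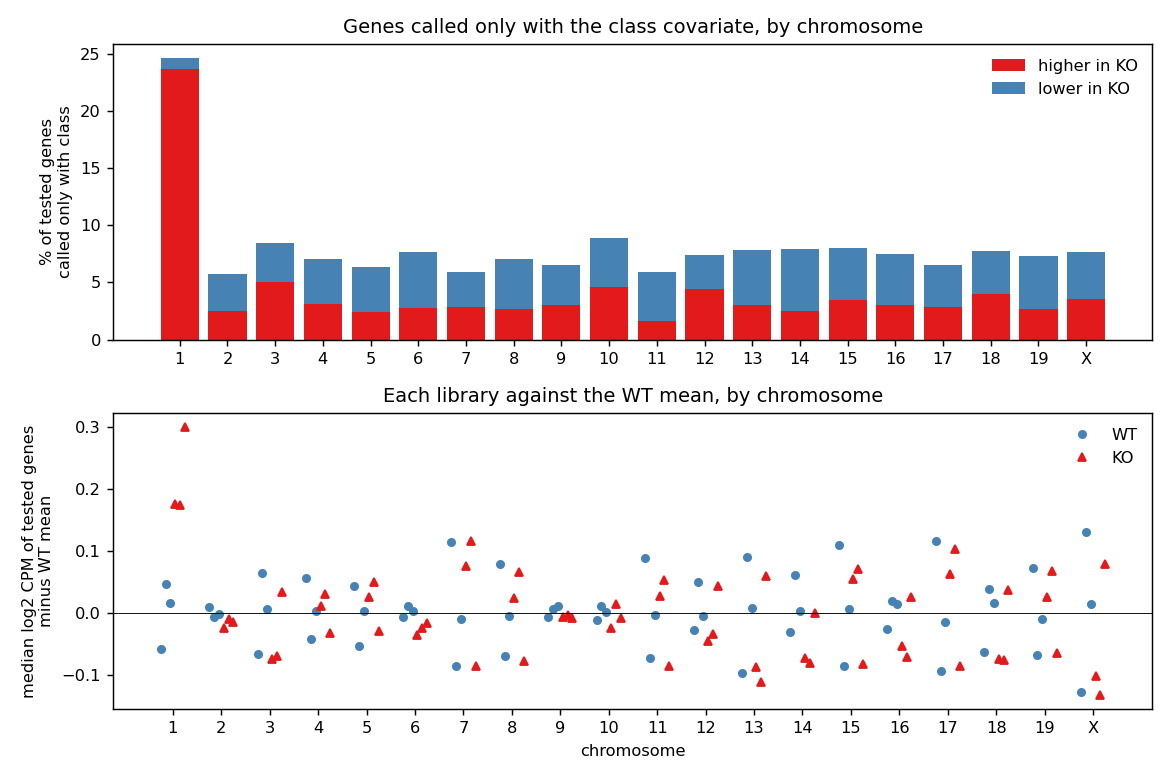
Top, percent of tested genes on each chromosome called only with the class, higher (red) or lower (blue) in KO; bottom, the median over tested genes of log2 CPM minus the WT mean, 1 point per library, circles for WT and triangles for KO. Chromosome 1 has 24.6% of its genes called only with the class, and its 3 KO points lie at 0.17 to 0.30.

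The 193 higher genes of chromosome 1 changed by a median of 1.31-fold (quartiles 1.26 and 1.39), and 173 of them by less than 1.5-fold. The 438 other higher genes had a median of 1.44-fold. Prrx1, a homeobox gene of mesenchyme, had the smallest p among the higher genes and lies there: 23.5, 33.5 and 29.0 CPM in WT and 42.0, 46.4 and 62.1 CPM in KO (0.95, SE 0.09). Phlda3 of the p53 list measured 88.8, 62.0 and 65.1 CPM in WT and 133, 150 and 92.3 CPM in KO (0.61, SE 0.08). Slc19a2, a thiamine transporter gene, and Rev1, a translesion polymerase gene, were chosen as examples after their values were seen and had 0.61 (SE 0.08) and 0.58 (SE 0.08). The 8 lower genes included Igfbp5 (-0.77, SE 0.15), which encodes a binding protein of insulin-like growth factors, Brinp2, Paqr8, Tuba4a, En1 and Col9a1, also named after their values were seen.

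In several lists the genes called only with the class all lay on chromosome 1. These were the ribosome biogenesis genes Ncl, Nop58, Wdr12 and Wdr75, 4 of 30 tested (13.3%), and the splicing genes Clk1 and Sf3b1, 2 of 34 (5.88%). Single genes were Hspd1 of 20 heat shock genes (5%), Mrpl44 of 23 mitochondrial ribosome genes (4.35%) and Kdm5b of 35 histone lysine methylation genes (2.86%). Rgs5 of 5 endothelial and pericyte genes and Prrx1 of 7 fibroblast and meningeal genes were single too. Over all tested genes the share was 7.65%, above those of the splicing, heat shock, mitochondrial ribosome and lysine methylation lists. Ncl, the nucleolar protein nucleolin, measured 921, 1106 and 1018 CPM in WT and 1129, 1139 and 1252 CPM in KO (0.27, SE 0.07). No other gene was called in the lists of ribosome biogenesis, splicing, heat shock, mitochondrial ribosome and lysine methylation. No ribosome biogenesis gene was called without WT 1 or without KO 3. Mcm6, Cenpf, Hes6, Map2, Bmpr2 and the Wnt receptor gene Fzd7 lie on chromosome 1 too, with log2 fold changes of 0.29 to 0.73 beside its median of 0.25.

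Fewer genes of chromosome 1 were called without the class, 40 higher and 14 lower (6.61%). Its median stayed at 0.24 to 0.26 when each library was left out, while the count called only with the class fell to 5 without KO 3, to 15 without WT 1, and to 83 and 90 without KO 1 and KO 2. It was 333 and 426 when WT 3 or WT 2 was dropped. In CUT&Tag, chromosome 1 held 6.22% and 6.27% of the region reads in WT and 6.30% in each KO library, and the median log2 fold change of its genes was -0.06, within the -0.09 to -0.02 of chromosomes 2 to 19 and X. What sets the RNA shift was not tested.

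CUT&Tag gave a readout in libraries that the rule did not use. Reads were summed per gene over the authors' regions within 3000 bp of its start, and 15612 genes were tested, of which 6 were called (0.0384%). Of the 1170 genes, 777 (66.4%) had a value. Their median log2 fold change was -0.05, as over all genes tested in both assays (-0.05). It was -0.05 for those higher in RNA and -0.07 for those lower. An unadjusted p under 0.05 was found for 58 of the 777 (7.46%), against 6.96% of the genes tested in both assays and 6.35% of all genes tested in CUT&Tag, and 1 was called.

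The gene called was Nes, which encodes the intermediate filament protein nestin of neural stem cells. Its CUT&Tag level was 122 and 147 CPM in WT and 335 and 358 CPM in KO, or 1.37 on the log2 scale (SE 0.14, adjusted p = 1.22e-19). Its RNA measured 843, 581 and 721 CPM in WT and 1147, 1072 and 842 CPM in KO. The high-class KO library lay just below the low-class WT library, and within each class KO was above WT. The RNA log2 fold change was 0.38 (SE 0.09, adjusted p = 0.018, against 0.183 without the class). Dropping WT 1 or any KO library ended its call in RNA. With CUT&Tag reads summed within 1000 bp of the start in place of 3000 bp, Nes had a log2 fold change of 1.01 and was not called (adjusted p = 0.0619).

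After Nes, the smallest CUT&Tag p among the 1170 genes were for Aldoa and Sfxn5, neither called. Aldoa, the glycolytic aldolase, measured 137 and 133 CPM in WT and 81.8 and 75.9 CPM in KO in CUT&Tag (-0.77, SE 0.19, adjusted p = 0.0646) and had an RNA log2 fold change of -0.38 (SE 0.07). Sfxn5, a sideroflexin gene, measured 141 and 125 CPM in WT and 81.8 and 73.5 CPM in KO in CUT&Tag (-0.77, SE 0.19, adjusted p = 0.0646), beside -0.44 (SE 0.09) in RNA. For Hmgcs1 and Slc2a1 the CUT&Tag log2 fold changes were -0.14 (SE 0.18) and -0.15 (SE 0.25).

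The 1170 genes were more highly expressed than the tested genes as a whole, with a median log2 CPM of 4.88 against 4.52. Their share rose from 2.52% of the genes under a log2 CPM of 0 to 12% of those at 8 and over, and the median absolute log2 fold change of those called fell from 1.73 to 0.36 (log2) between these bins. Their median length in the table was 3406.5 bp, against 2830 bp for all tested genes. Of the 1120 with a RefSeq biotype, 1076 were protein coding and 36 were long noncoding RNAs.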

How the data were processed

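RNA values are the authors' unscaled expected counts by gene, as deposited (7.92% to 9.74% not whole), and were rounded. HISAT2, StringTie and the build GRCm39 are named, unversioned, in the submitters' processing notes. How reads were counted, whether by strand, and how peaks were called is not stated in the sources used here. For CUT&Tag, the deposited counts per region are whole numbers over 69418 regions, assigned to genes by the authors. Library totals in regions were 2913959 to 4038765 reads.

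Both were tested with edgeR 4.0.16 in R 4.3.3 (glmQLFit with robust dispersion, glmQLFTest, TMM, filterByExpr with a minimum count of 10), adjusted by Benjamini-Hochberg over all tested genes. The filter kept 99.9% of the RNA counts. RNA fits with the class left 3 residual degrees of freedom, and those without it 4. CPM are TMM-scaled, and an SE is the log2 fold change divided by the square root of F. Scripts were tested on simulated data. A chi-square over counts showed no library deposited more than once. KO 1 and KO 2 were by far the closest pair, at 4.64 per degree of freedom, against 20.1 to 85.8 for every other pair. They are the 2 low-class KO libraries, so their small spread enters the fit with the class. Whether they are technical replicates is not given and was not tested.

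The members and gene lists were chosen with earlier results of these data known. Named genes were Riox2, the 10 largest changes and 5 smallest p in each direction among members at or above a mean log2 CPM of 1 with separate groups within classes, without predicted or clone names, up to 4 members with the smallest p of each list, and 3 genes on each side of the threshold. Slc19a2 and Rev1 were added as examples of chromosome 1 after their values were seen. Other members of a list are named to show its makeup, and 10 listed symbols were not found. Some members are not reported here by name. RefSeq GRCm38.p6 gave chromosomes by gene ID, or by symbol where the ID had no match. It gave gene order and promoters by symbol.

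Alternatives tried were DESeq2 1.42.0, scaling by RLE or by library totals, other filters, no robust dispersion, a replicate block, no mt- genes, the mitochondrial percent as a number, a surrogate variable (sva 3.50.0), a threshold of 0.01, windows for CUT&Tag and each library left out. Fits within a class, and all alternatives for the interaction without a library, for chromosome 1 and for lists, were chosen after seeing the data.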

Additional observations from a re-analysis of the deposited data

Results flagged for a closer look

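Idi1-ps1, a pseudogene of the isopentenyl diphosphate isomerase gene and not among the 1170 genes, had a genotype difference that differed between the mitochondrial classes (interaction adjusted p = 0.000132, edgeR). It measured 6.50 CPM in WT 1, 11.5 in WT 2, 16.4 in WT 3, 0 in KO 1, 0 in KO 2 and 20.2 in KO 3, so KO was at 0 in the low class and above both WT libraries in the high class. The difference rests on KO 1 and KO 2 against 1 WT library, and reads shared with Idi1, itself called lower only with the class, make its counts uncertain.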

How the results depend on the processing

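All 1170 genes rest on a class that splits 6 libraries with 1 low WT and 1 high KO library. Among the genes called with the class (1695), without it (525), only with it (1170) and for the class (5346), DESeq2 gave 958 without the class and 653 only with it (575 shared with the 1170), a threshold of 0.01 gave 853 with it and 678 only with it, and 1 surrogate variable, whose sign parted the libraries as the class does, gave 1884 only with it. Within the low class 418 and within the high class 467 genes were called. Leaving out each library gave 415 to 3885 genes with the class, 145 to 506 without it, 81 to 3572 only with it and 32 to 6969 for the class. Same-numbered libraries deviated with correlations of 0.46, -0.37 and 0.27. WT and KO libraries of the same class had positive and those of different classes negative correlations, whatever their number. These values therefore cannot show whether the numbers pair libraries, and no label says so. With the replicate block 4216 genes were called with the class, 229 without it and 3987 only with it. For the interaction (1), DESeq2 gave 4, no count filter 25 and each estimable left-out library 9 to 44; it cannot be estimated without WT 1 or KO 3, and a replicate block leaves it no residual degrees of freedom. For CUT&Tag (6), all assigned regions gave 40, the replicate block 3 and each left-out library 2 to 5; a library left out leaves 1 in its group, assumed to vary like the other group. Nes had an adjusted p of 0.0619 in CUT&Tag within 1000 bp. The other alternatives for these counts stayed within 1.5 times, and none of the named genes changed direction in any alternative. At 19923010 to 25939376 counts per library, only 2.52% of genes under a log2 CPM of 0 were called only with the class.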

Other observations

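Genes of signalling and adhesion were called only with the class in both directions. The share called only with the class was 22.2% in the Wnt list, 17.1% in axon guidance, 16% in TGF-beta and BMP and 15.4% in hedgehog. It was 9.09% in the FGF list and 7.89% in the synapse and adhesion list, which holds Cdh2, both near the 7.65% of all tested genes. In the Wnt list (27 tested), the receptors Fzd1 and Fzd7 and the ligands Wnt5a and Wnt7b were higher and Fzd10 and Tcf7l2 lower. Wnt5a measured 79.6, 87.1 and 93.0 CPM in WT and 99.4, 102 and 115 CPM in KO (log2 fold change 0.34, SE 0.07), without overlap. In the axon guidance list (35 tested), the netrin receptors Dcc and Unc5b, Sema5a and Epha5 were higher and Ephb3 and Slit1 lower. Dcc measured 6.42, 7.48 and 7.68 CPM in WT and 11.0, 9.19 and 13.2 CPM in KO (0.73, SE 0.13). Cdh2, which encodes N-cadherin, measured 247, 268 and 277 CPM in WT and 356, 342 and 394 CPM in KO (0.51, SE 0.07), the KO libraries all higher. In the hedgehog list (13 tested), the co-receptor gene Boc (-0.69, SE 0.13) and the inhibitor gene Sufu (-0.33, SE 0.09) were lower, while Cdon and Gpr161 were higher in both fits. In the FGF list (22 tested) the feedback inhibitor gene Spry4 (-0.41, SE 0.07) and Etv4 (-0.33, SE 0.08) were lower and Fgf13 was higher in both fits. The other 19 did not pass, Spry1, Spry2, Dusp6 and Etv5 among them. In the TGF-beta and BMP list (25 tested) Id4 (-0.68, SE 0.14), Smad5 (-0.35, SE 0.07) and Tgfb3 (-0.68, SE 0.17) were lower. Bmpr2 was higher, and Ltbp1 was higher in both fits.

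Of 22 potassium channel genes tested, 3 were higher only with the class, Kcnk10 (0.83, SE 0.20) among them, and 1 was lower. The MHC class I gene H2-K1 measured 81.9, 54.2 and 62.9 CPM in WT and 54.4, 55.0 and 40.5 CPM in KO (-0.56, SE 0.09), and its reads may be shared with other class I genes. Of 6 Y-linked genes tested, Eif2s3y and Mid1-ps1 were lower only with the class. Eif2s3y, a translation factor subunit, measured 57.1, 90.5 and 71.9 CPM in WT and 35.8, 37.7 and 48.1 CPM in KO (-0.70, SE 0.10), while Kdm5d had 0.05 (SE 0.08), Ddx3y -0.17 (SE 0.10) and Uty -0.13 (SE 0.12), none called.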
